A study of Homo sapiens with 24 samples.

Results

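The genes described here are 36 targets of the hypoxia-inducible factors (HIFs) that work outside glycolysis, taken by gene symbol from a list of well-known HIF targets, of the 26475 genes counted in each library. They were chosen with earlier results of these data known, so their shares set beside those of all genes are descriptive and no independent test. All 36 had reads in at least 1 of 24 RNA-seq libraries from 2 clear cell renal cell carcinoma (ccRCC) lines. 786-M1A and OS-LM1 are metastatic derivatives of the lines 786-O and OS-RC2, both grown in RPMI with fetal bovine serum and both lacking working VHL. Each line was sequenced with 1 of 3 constructs, 4 replicates each: sgNTC18, labelled only by that name and used here as the control, and the short hairpins shPAX8-1 and shPAX8-2 against PAX8, the transcription factor of the renal lineage. The study's plasmids include doxycycline-inducible hairpin vectors; the labels give no time, dose or doxycycline treatment for any group. sgNTC18 is named as a guide RNA and not as a hairpin, so that PAX8 depletion and the type of construct cannot be told apart in any comparison of shPAX8 with sgNTC18.

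HIFs are pairs of an oxygen-sensitive alpha subunit, HIF1A or EPAS1 (also called HIF2A), with ARNT. In oxygen, prolyl hydroxylases mark the alpha subunit, and VHL directs the marked protein to degradation, so cells without VHL keep HIF active in oxygen. HIF then binds a short core in the DNA of genes for pH control, blood vessels, mitochondria, collagen and growth restraint as well as glycolysis. 786-O cells are known to make no working HIF1A protein and to rely on EPAS1. CA9, the best known of these targets, is used by pathologists as a marker of ccRCC.

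The hairpin guides are printed because every comparison that uses shPAX8 libraries rests on them, with the seed (bases 2 to 8, from 1 at the 5′ end) in capitals. Each was found once within the PAX8 gene on the minus strand of chromosome 2 (GRCh38), over all 22 bases. The site of shPAX8-1, chr2:113241690-113241711, lies in coding exon 7 of the canonical transcript, and that of shPAX8-2, chr2:113218122-113218143, in the untranslated part of exon 12.
shPAX8-1: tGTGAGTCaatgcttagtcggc
shPAX8-2: tAGAGTTGtgttaataatggag

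RefSeq promoters (GRCh38.p14) were at hand for 30 of the 36 genes. The HIF core was searched as ACGTG and GCGTG on both strands in the 250 bases before each start site. ACGTG within CACGTG matches on both strands and was counted for each. A core was present in 26 of the 30 promoters (86.7%), against 49.5% of the 16199 promoters of genes in the files and 43.1% of all 27305 promoters. ACGTG alone was present in 17 of the 30 (56.7%), against 20.6% and 18.7%. The promoters of RORA, MXI1, P4HA2 and TMEM45A held neither form in this window. Only the first listed start site of each gene was searched. The windows of RORA, P4HA2 and KDM3A lie inside the annotated gene, so other start sites of these genes were not covered. Matches are a description of letters, and HIF also binds far from start sites. The 250 bases before the start are shown for 5 genes that the results turn on: CA9 and ANGPTL4, which differed strongly between the lines, the neighbouring genes EFNA3 and EFNA1, and P4HA1, whose change was close in both. Capitals mark a core, read as CACGT or CACGC where it lies on the opposite strand.
CA9, chr9:35673678-35673927, plus strand: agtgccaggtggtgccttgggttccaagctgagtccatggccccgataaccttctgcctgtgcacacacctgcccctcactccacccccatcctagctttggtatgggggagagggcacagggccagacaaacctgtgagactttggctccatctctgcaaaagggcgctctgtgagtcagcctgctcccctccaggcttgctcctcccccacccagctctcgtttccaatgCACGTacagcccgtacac
ANGPTL4, chr19:8363905-8364154, plus strand: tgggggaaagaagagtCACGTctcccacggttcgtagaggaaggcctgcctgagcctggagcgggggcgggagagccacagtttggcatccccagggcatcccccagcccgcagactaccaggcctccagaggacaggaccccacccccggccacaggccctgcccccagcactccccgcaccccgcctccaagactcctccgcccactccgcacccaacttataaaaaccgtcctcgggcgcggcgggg
EFNA3, chr1:155078587-155078836, plus strand: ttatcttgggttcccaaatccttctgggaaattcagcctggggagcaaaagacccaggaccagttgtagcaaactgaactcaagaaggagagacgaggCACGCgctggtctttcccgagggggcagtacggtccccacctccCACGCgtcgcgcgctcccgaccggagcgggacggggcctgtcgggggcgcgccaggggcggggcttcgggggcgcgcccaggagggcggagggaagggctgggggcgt
EFNA1, chr1:155127626-155127875, plus strand: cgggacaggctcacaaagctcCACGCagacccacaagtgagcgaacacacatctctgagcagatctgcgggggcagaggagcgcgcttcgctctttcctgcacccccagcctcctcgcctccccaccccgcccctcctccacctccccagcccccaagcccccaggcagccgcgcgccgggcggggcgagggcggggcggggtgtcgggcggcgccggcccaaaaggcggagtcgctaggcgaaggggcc
P4HA1, chr10:73096867-73097116, minus strand: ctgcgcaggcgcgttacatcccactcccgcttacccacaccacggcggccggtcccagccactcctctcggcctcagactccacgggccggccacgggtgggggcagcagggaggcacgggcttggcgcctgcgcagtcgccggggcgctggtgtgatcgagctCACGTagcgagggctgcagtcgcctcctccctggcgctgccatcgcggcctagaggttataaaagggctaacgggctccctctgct

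CA9 held its only core 18 bases before the start, and P4HA1 86 bases before it. In ANGPTL4 and EFNA1 the single core lay at the far end of the window, 234 and 229 bases before the start. EFNA3 held GCGTG cores at 152 and 108 bases.

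PAX8 itself was lower in both hairpin groups of both lines. In 786-M1A its level was 341 ± 44.7 CPM (read counts scaled to library size and, by TMM, to composition; mean ± SD, n = 4 in every group) with sgNTC18, 18.7 ± 4.31 with shPAX8-1 and 42.4 ± 2.36 with shPAX8-2. In OS-LM1 the same levels were 259.8 ± 14.5, 78.2 ± 13.0 and 79.2 ± 13.7 CPM. The log2 fold change of shPAX8 against sgNTC18 was -3.58 in 786-M1A and -1.73 in OS-LM1, so the depletion was deeper in 786-M1A (difference 1.87 ± 0.17 (SE), adjusted p = 7.5e-10). In bulk RNA, fewer cells making a transcript and less of it per cell cannot be told apart.

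Libraries held 11634419 to 52059375 expected counts, and no pair of replicates agreed within sampling noise. Nothing states that replicates were separate cultures, so p-values measure the spread between these libraries. The 4 libraries of 786-M1A shPAX8-1 fell into pairs: the mean chi-square statistic per gene came to 14.1 for replicates 1 and 2 and to 3.73 for replicates 3 and 4, but to 44.7 to 77.4 across the pairs. In 786-M1A shPAX8-2 the same split was smaller, with 3.96 and 11.7 within the pairs and 14.9 to 19.2 across. Of the 6 renal markers, PAX8, KRT8, KRT18 and CDH6 had group means from 18.7 to 536 CPM. CDH16 had means from 0.495 to 5.53 CPM, lowest with shPAX8-1 in both lines, and EPCAM from 0 in OS-LM1 sgNTC18 libraries to 3.85 CPM. CD3E was at 0 and PTPRC, CDH5 and VWF were below 1 CPM in every group mean. Of 5 fibroblast and pericyte markers, 3 were higher with shPAX8 in 786-M1A and 5 in OS-LM1, against 35.7% and 36.4% of all genes tested. Their summed level was 551.6 to 745.7 CPM in 786-M1A sgNTC18 libraries, 244.7 to 472.7 with shPAX8-1 and 755 to 967.1 with shPAX8-2, and 90.21 to 107 in OS-LM1 sgNTC18 libraries against 244.4 to 330.4 and 360.1 to 497.9. CD68, a lysosomal gene not limited to leukocytes, made up nearly all of the summed level of 4 leukocyte markers (77.93 to 402.3 CPM). The 6 renal markers were all lower with shPAX8 in 786-M1A, and in OS-LM1 3 of 6 were lower and 2 higher. Of all genes tested, 34.7% were called lower in 786-M1A, and 37.1% lower and 36.4% higher in OS-LM1. PDGFRB made up most of the fibroblast and pericyte sum in 786-M1A (group means 300.04 to 782 CPM), and ACTA2 (80.3 to 266 CPM) and COL1A1 (16.2 to 166 CPM) most of it in OS-LM1, while DCN was below 1 CPM in every group mean. In OS-LM1 sgNTC18 libraries PDGFRB, DCN and EPCAM reached at most 0.264, 0.151 and 0 CPM. They passed the low-count filter there only through the hairpin libraries, so the filter fixed their direction. The part of the marker genes in the results was not tested.

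In 786-M1A, 25 of the 33 members that passed the low-count filter were higher with shPAX8 and 2 lower (CA12 and ANGPTL4), at an adjusted p under 0.05 in edgeR's quasi-likelihood test. The background was wide: 35.7% of all 14452 genes tested were called higher and 34.7% lower. CA9, NDUFA4L2 and RORA were too low in 786-M1A to be tested. In OS-LM1, 22 of 36 members were higher and 8 lower, against 36.4% and 37.1% of 15049 genes. RORA, among the 22, needed the hairpin libraries to pass the filter there. The calls in both lines average both hairpins, and not all held with each. Of those called in 786-M1A, AK4, DDIT4 and WSB1 missed the threshold with shPAX8-1 alone, and CITED2, KDM3A, JMJD6 and INSIG2 with shPAX8-2 alone. In OS-LM1 the called members MXI1, GBE1 and PLOD1 missed it with shPAX8-2 alone. The members' median log2 fold change was 0.79 in 786-M1A and 0.48 in OS-LM1, while that of all genes was 0.04 and -0.01.

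Of 17 glycolytic HIF targets, 12 were lower and 3 higher with shPAX8 in each line, with medians of -0.64 and -0.40. Both alpha subunits were higher. HIF1A had means of 8.47, 18.5 and 15.5 CPM with sgNTC18, shPAX8-1 and shPAX8-2 in 786-M1A and 35.8, 165 and 132 in OS-LM1. EPAS1 had means of 202, 311 and 529 CPM in 786-M1A and 128, 185 and 222 in OS-LM1. Over the 9 genes of the HIF machinery, 4 were higher and 4 lower with shPAX8 in 786-M1A, and 6 higher and 2 lower of 8 tested in OS-LM1.

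The lines share no library in these comparisons. Among the 33 members tested in both, 17 were higher in both lines (51.5%, against 19.7% of all genes tested in both) and none was lower in both (21.9% of all genes). ANGPTL4, BHLHE41, DDIT4, EFNA3, NDRG1 and PLOD1 were called in opposite directions, which is 18.2% of the members against 12.5% of all genes. The change itself differed between lines, by the interaction of line and construct, for 24 of 36 members: 7 with a larger value in OS-LM1 and 17 with a smaller one, where 29.9% and 28.8% of all 15665 genes were called. NDUFA4L2, among the 7, passed the filter only through OS-LM1, which favoured that direction. Summed over the 36 genes, the level was 5211 to 5266 CPM in 786-M1A sgNTC18 libraries, 8405 to 10300 with shPAX8-1 and 10240 to 11840 with shPAX8-2. In OS-LM1 the same sum was 3273 to 3675, 4624 to 4923 and 5126 to 5397 CPM. NDRG1 was the largest part of the sum in 786-M1A, with means of 1456, 3398 and 4450 CPM with sgNTC18, shPAX8-1 and shPAX8-2. Its means in OS-LM1 were 213, 114 and 145 CPM. The sums thus rest heavily on NDRG1 in 786-M1A.

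**Figure D1:**
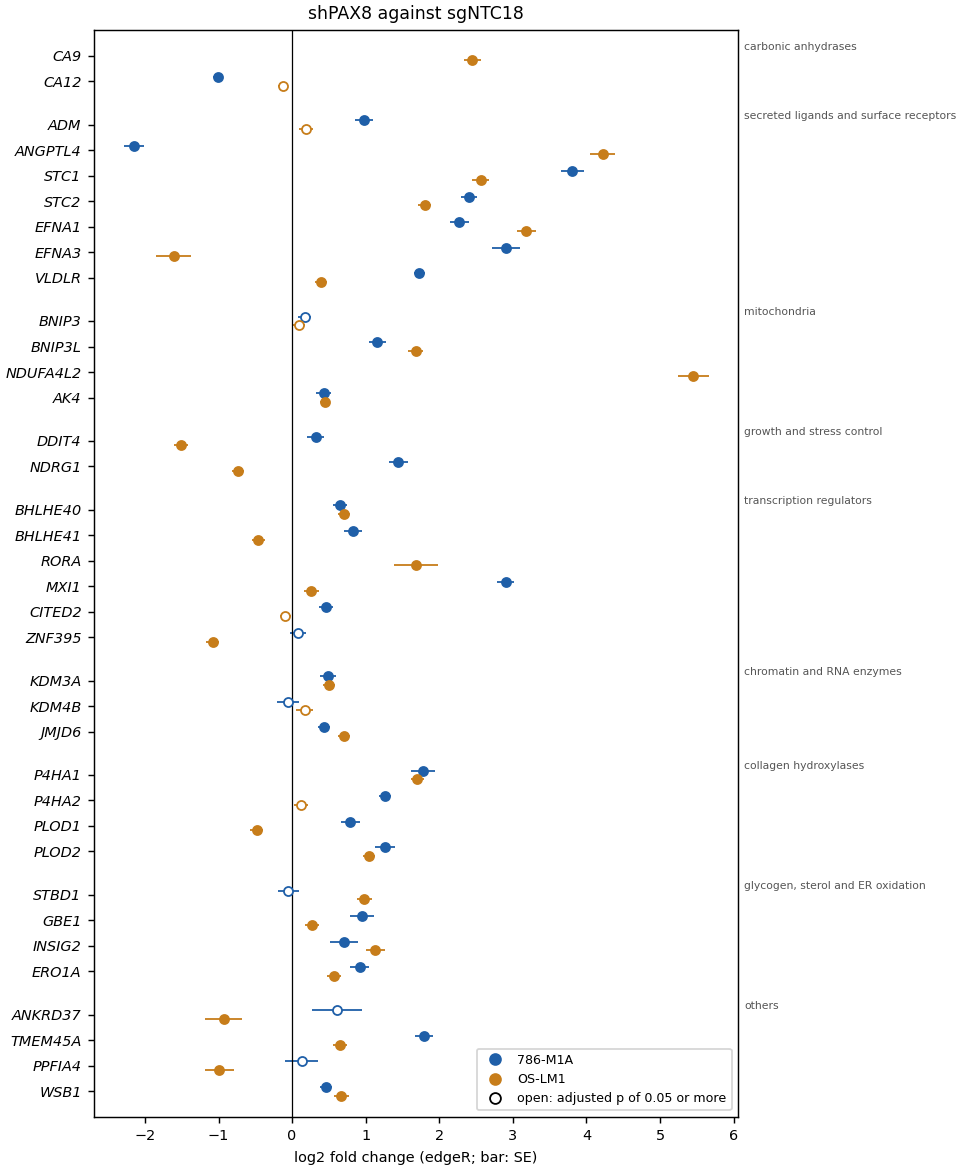
Log2 fold change of shPAX8 against sgNTC18 for each member (x axis, edgeR, bars are SE) in 786-M1A (blue) and OS-LM1 (orange), with genes ordered by role on the y axis and open circles where the adjusted p was 0.05 or more. NDUFA4L2 at 5.45 and ANGPTL4 at 4.22 lie furthest right in OS-LM1, while ANGPTL4 at -2.15 lies furthest left in 786-M1A.

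The carbonic anhydrases CA9 and CA12, which turn carbon dioxide into bicarbonate at the cell surface, split by line. CA9 had no read in any of the 4 sgNTC18 libraries of 786-M1A, and only 5 reads in all over the 8 shPAX8 libraries of that line. In OS-LM1 its levels were 6.37, 6.32, 6.95 and 5.93 CPM with sgNTC18, 44.7, 45.3, 36.4 and 42.2 with shPAX8-1 and 27.9, 25.2, 35.7 and 29.3 with shPAX8-2. Every shPAX8 library of OS-LM1 stood above every sgNTC18 library, with a log2 fold change of 2.45 ± 0.11 (SE), adjusted p = 1.6e-13. Between the lines CA9 was at least 205-fold higher in OS-LM1 with sgNTC18, taking 3 counts over the 786-M1A group as the floor. With shPAX8 the ratio was 997, with a 95% Poisson interval of 427 to 3070 that covers counting error only.

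CA12 was abundant in both lines, at 1005, 978, 989 and 982 CPM in 786-M1A and 777, 669, 769.6 and 751 in OS-LM1 with sgNTC18. In 786-M1A its levels were 412, 386, 374 and 345 CPM with shPAX8-1 and 646, 639.7, 579 and 611 with shPAX8-2, all below the control libraries (log2 fold change -1.01 ± 0.07 (SE), adjusted p = 4.6e-09). In OS-LM1 the levels were 515, 581, 587 and 539 CPM with shPAX8-1 and 828, 827, 917 and 831 with shPAX8-2. There the constructs lay on either side of the control, with log2 fold changes of -0.44 (adjusted p = 5.2e-05) and 0.20 (adjusted p = 0.028), and the pooled change was -0.12 ± 0.07 (SE), adjusted p = 0.12. The line ordering turned with the construct type: CA12 was lower in OS-LM1 with sgNTC18 (-0.41) and higher with shPAX8 (0.50).

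Of the 7 secreted ligands and surface receptors, 6 were higher and 1 lower with shPAX8 in 786-M1A, and 5 higher and 1 lower in OS-LM1. ANGPTL4, a secreted inhibitor of lipoprotein lipase, changed in opposite directions. In 786-M1A its levels were 11.5, 15.0, 14.9 and 13.7 CPM with sgNTC18, 1.36, 1.22, 0.903 and 1.16 with shPAX8-1 and 7.16, 9.76, 6.46 and 8.33 with shPAX8-2. In OS-LM1 they were 1.83, 1.64, 1.31 and 1.93 CPM with sgNTC18, 20.5, 22.2, 27.5 and 22.2 with shPAX8-1 and 39.7, 29.2, 53.3 and 49.0 with shPAX8-2. The groups did not overlap in either line. Its log2 fold changes were -2.15 ± 0.14 (SE), adjusted p = 3.3e-09 in 786-M1A and 4.22 ± 0.17 (SE), adjusted p = 6.1e-14 in OS-LM1, and the difference of 6.40 ± 0.23 was the largest interaction of any member. With sgNTC18 the gene was lower in OS-LM1 than in 786-M1A (-3.03), and with shPAX8 it was higher (3.36).

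The ephrins EFNA1 and EFNA3, membrane-anchored ligands of EPHA receptors, are neighbours on chromosome 1, 40.3 kb apart (EFNA3 at chr1:155078837-155087538 and EFNA1 at chr1:155127876-155134899, GRCh38.p14). EFNA1 was higher with shPAX8 in both lines. Its levels were 8.66, 9.23, 9.70 and 9.13 CPM with sgNTC18, 51.3, 35.6, 38.2 and 37.7 with shPAX8-1 and 51.7, 51.8, 40.6 and 44.3 with shPAX8-2 in 786-M1A. In OS-LM1 its levels were 1.61, 2.11, 2.81 and 1.96, 23.4, 22.7, 22.7 and 23.7 and 15.2, 16.2, 16.1 and 17.9 CPM. EFNA3 was higher with shPAX8, like its neighbour, in 786-M1A. Its levels there were 1.56, 2.43, 2.04 and 2.06 CPM with sgNTC18, 18.8, 13.2, 15.1 and 14.2 with shPAX8-1 and 17.7, 17.1, 9.94 and 13.4 with shPAX8-2. In OS-LM1 EFNA3 was low throughout, at 1.83, 1.14, 1.53 and 1.81 CPM with sgNTC18, 0.729, 0.423, 0.522 and 0.872 with shPAX8-1 and 0.42, 0.298, 0.459 and 0.448 with shPAX8-2. The log2 fold changes of EFNA1 were 2.27 and 3.18 in 786-M1A and OS-LM1, and those of EFNA3 2.91 and -1.61. The interaction was -4.48 ± 0.28 (SE), adjusted p = 3.4e-13 for EFNA3 and 0.94 ± 0.17 (SE), adjusted p = 3.4e-05 for EFNA1.

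The stanniocalcins STC1 and STC2, secreted glycoproteins first known from calcium and phosphate balance, were higher in both lines. STC1 was at 26.3, 19.7, 29.0 and 27.0 CPM in 786-M1A with sgNTC18, 253, 244, 313 and 324 with shPAX8-1 and 468, 446, 487 and 357 with shPAX8-2. In OS-LM1 it was at 21.2, 23.5, 23.2 and 24.2, 144, 106, 130.1 and 137 and 121, 171, 131 and 156 CPM. With sgNTC18 the log2 difference of STC1 between the lines was -0.15 ± 0.13 (SE), adjusted p = 0.33, and -0.36 (adjusted p = 0.0039) with the trend over GC content removed. The change was larger in 786-M1A (3.81) than in OS-LM1 (2.56; interaction -1.22 ± 0.16 (SE), adjusted p = 4.9e-07). STC2 changed by 2.40 ± 0.11 and 1.80 ± 0.09, and both lines had more of it with shPAX8-1 than with shPAX8-2 (1.11 and 0.77).

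ADM, the vasodilator peptide adrenomedullin, was 0.98 ± 0.12 higher with shPAX8 in 786-M1A on the log2 scale, and its change in OS-LM1 was 0.19 ± 0.09 (SE), adjusted p = 0.051. With the trend over GC content removed that change was 0.61 (adjusted p = 2.7e-06). VLDLR, a lipoprotein receptor, was at 42.7 to 50.6 CPM in 786-M1A with sgNTC18 and 137 to 184 with shPAX8. In OS-LM1 it was at 54.4 to 66.7 and 63.6 to 92.3 CPM, so its groups overlapped there. Its log2 fold changes were 1.73 and 0.39, and they differed by -1.31 ± 0.10 (SE), adjusted p = 3.3e-11. Antisense genes of VLDLR and of the members P4HA2 and RORA are also counted in the files, and the strand setting of the counting is not given in the sources used here.

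**Figure D2:**
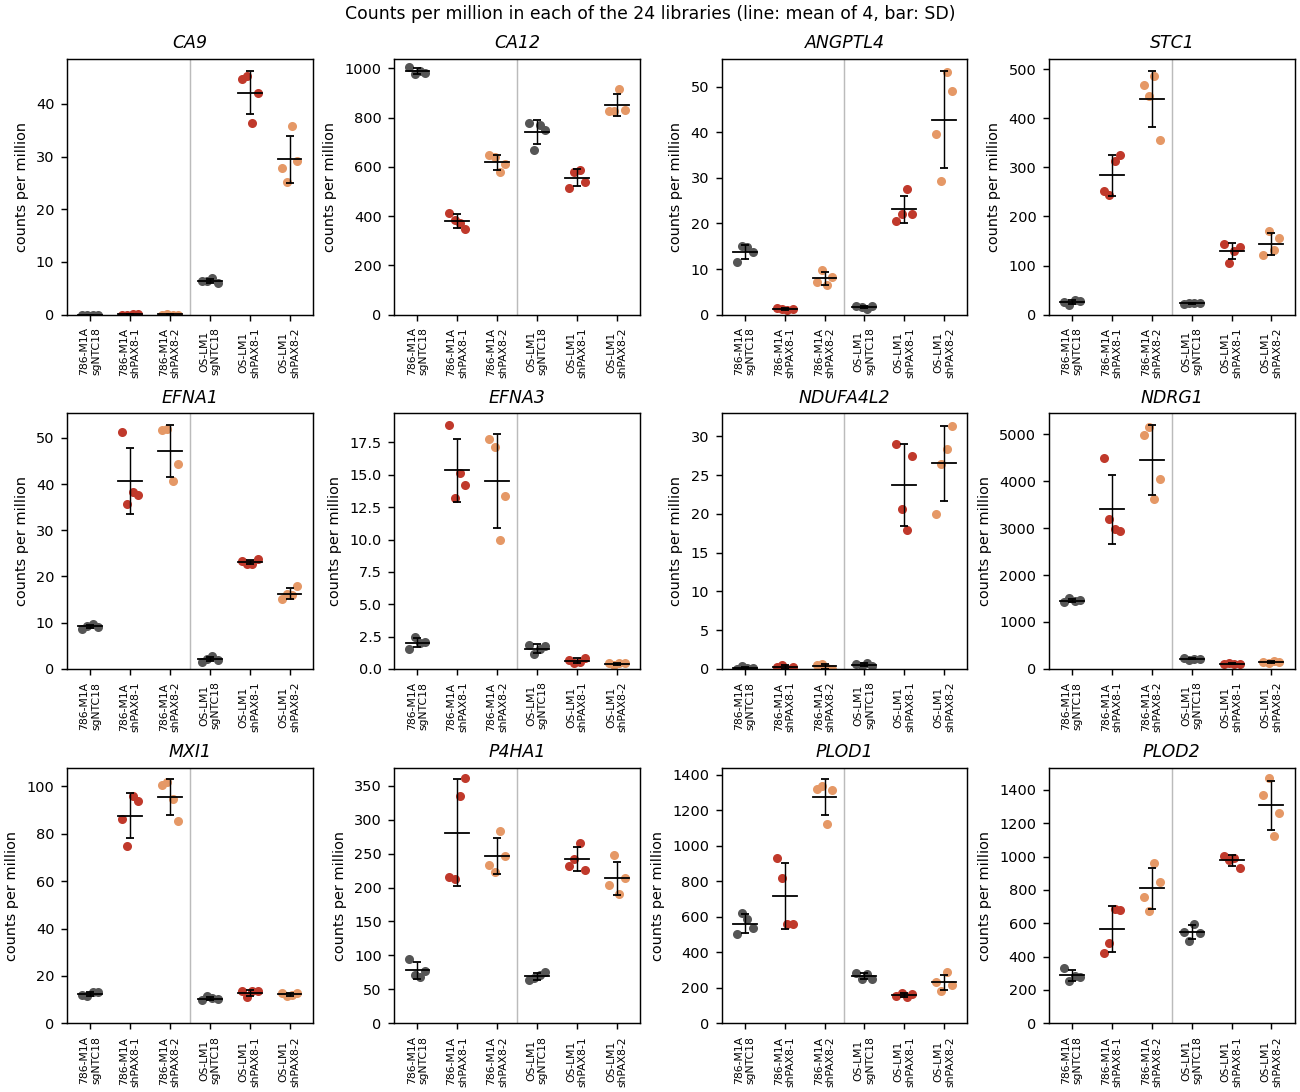
CPM (y axis, linear from 0) of 12 members in each of the 24 libraries (points), by line and construct (x axis), with the mean (line) and SD (bar) of 4 libraries. CA9 and NDUFA4L2 reach 42.1 and 26.5 CPM in hairpin groups of OS-LM1 and lie at or near 0 in 786-M1A, while MXI1 and EFNA3 rise far above their controls in 786-M1A.

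Of the 4 mitochondrial members, BNIP3L and AK4 were higher with shPAX8 in both lines, NDUFA4L2 was higher in OS-LM1, and BNIP3 passed the test in neither. NDUFA4L2, a relative of a cytochrome oxidase subunit that restrains mitochondrial respiration, had the largest change of any member with shPAX8. Its levels in OS-LM1 were 0.676, 0.381, 0.779 and 0.422 CPM with sgNTC18, 28.9, 20.6, 17.9 and 27.5 with shPAX8-1 and 20.01, 26.4, 28.3 and 31.4 with shPAX8-2 (log2 fold change 5.45 ± 0.21 (SE), adjusted p = 2.7e-14). In 786-M1A the 12 libraries held 0 to 0.647 CPM, from 15, 20 and 22 reads summed over the sgNTC18, shPAX8-1 and shPAX8-2 groups. The interaction of 4.54 ± 0.86 (SE), adjusted p = 7.0e-05 rests on those few reads in 786-M1A. NDUFA4L2 entered the fit of all libraries only through OS-LM1, so the filter favoured a positive interaction.

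BNIP3 and BNIP3L are paralogous receptors for the removal of mitochondria. BNIP3L levels were 27.4 to 32.8 CPM with sgNTC18 and 56.6 to 91.3 with shPAX8 in 786-M1A, and 40.7 to 48.4 and 113 to 176 CPM in OS-LM1. Groups did not overlap, and the log2 fold changes were 1.16 ± 0.12 and 1.68 ± 0.10. BNIP3 had pooled changes of 0.17 ± 0.09 (SE), adjusted p = 0.11 in 786-M1A and 0.09 ± 0.09 (SE), adjusted p = 0.39 in OS-LM1. The constructs differed. In 786-M1A its change was 0.39 (adjusted p = 0.003) with shPAX8-1 and -0.06 (adjusted p = 0.64) with shPAX8-2, and the pooled change was 0.27 (adjusted p = 0.0098) with the GC trend removed. In OS-LM1 BNIP3 was higher with shPAX8-1 (0.45 (adjusted p = 8.0e-04)) and lower with shPAX8-2 (-0.27 (adjusted p = 0.028)). AK4, the adenylate kinase of the mitochondrial matrix, changed by 0.43 and 0.45, with overlapping libraries in 786-M1A, where its change with shPAX8-1 alone was 0.24 (adjusted p = 0.068).

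DDIT4, an inhibitor of mTORC1 signalling, and NDRG1, a stress-induced protein, were higher with shPAX8 in 786-M1A and lower in OS-LM1. NDRG1 was the most abundant member in 786-M1A, at 1418, 1504, 1438 and 1465 CPM with sgNTC18, 4494, 3191, 2977 and 2929 with shPAX8-1 and 4987, 5149, 3622 and 4044 with shPAX8-2. In OS-LM1 it was at 229, 199, 211 and 214, 103, 128, 111 and 115 and 139, 128, 170.4 and 142 CPM. The groups did not overlap in either line, and the log2 fold changes were 1.44 ± 0.13 (SE), adjusted p = 1.2e-07 and -0.74 ± 0.08 (SE), adjusted p = 5.4e-08. Between lines NDRG1 was lower in OS-LM1, with log2 differences of -2.77 with sgNTC18 and -4.92 with shPAX8. DDIT4 was at 103 to 123 CPM with sgNTC18 and 110.2 to 175 with shPAX8 in 786-M1A, where libraries overlapped (0.32 ± 0.12 (SE), adjusted p = 0.023). It missed the threshold with shPAX8-1 alone (0.19 (adjusted p = 0.22)), without 786-M1A sgNTC18 replicate 3 (0.28, adjusted p = 0.089) and without replicate 4 (0.30, adjusted p = 0.07). In OS-LM1 it was at 66.4 to 85.6 CPM with sgNTC18 and 18.1 to 35.2 with shPAX8, with no overlap (-1.51 ± 0.10 (SE), adjusted p = 6.0e-11).

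Of the 6 transcription regulators, 4 were higher with shPAX8 and none lower in 786-M1A, and 3 were higher and 2 lower in OS-LM1. MXI1, a repressor that pairs with MAX, had levels of 11.7, 11.4, 13.2 and 13.3 CPM with sgNTC18, 86.2, 74.9, 95.8 and 93.6 with shPAX8-1 and 100.5, 102, 94.5 and 85.2 with shPAX8-2 in 786-M1A. In OS-LM1 its levels were 9.66, 11.3, 10.7 and 10.1, 13.5, 11.1, 13.6 and 13.7 and 12.9, 11.7, 11.8 and 12.9 CPM. The control levels were thus near each other, while the changes were 2.90 ± 0.11 (SE), adjusted p = 1.7e-11 in 786-M1A and 0.26 ± 0.10 (SE), adjusted p = 0.019 in OS-LM1. The OS-LM1 change missed the threshold with shPAX8-2 alone (0.24 (adjusted p = 0.061)), without OS-LM1 sgNTC18 replicate 1 (0.23, adjusted p = 0.057), and with the GC trend removed (0.07, adjusted p = 0.49). The interaction was -2.61 ± 0.13.

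BHLHE40 and BHLHE41 are paralogous repressors of the circadian clock. BHLHE40 changed by close amounts in both lines (0.65 ± 0.09 and 0.71 ± 0.08; interaction 0.09 ± 0.12 (SE), adjusted p = 0.56). BHLHE41 was higher with shPAX8 in 786-M1A (0.83 ± 0.12) and lower in OS-LM1 (-0.46 ± 0.09), with an interaction of -1.26 ± 0.15 (SE), adjusted p = 5.3e-08. CITED2, which competes with HIF for the coactivator p300, differed by hairpin. Its means were 114, 217 and 110.0 CPM with sgNTC18, shPAX8-1 and shPAX8-2 in 786-M1A and 88.2, 116 and 59.4 in OS-LM1. In OS-LM1 its changes were 0.38 (adjusted p = 3.2e-04) with shPAX8-1 and -0.56 (adjusted p = 4.2e-06) with shPAX8-2. ZNF395, a zinc finger protein, was lower with shPAX8 in OS-LM1 (-1.08 ± 0.09 (SE), adjusted p = 2.1e-09), and in 786-M1A its changes were -0.40 (adjusted p = 0.014) and 0.55 (adjusted p = 0.002) with shPAX8-1 and shPAX8-2. RORA, a nuclear receptor of the clock, ranged from 0 to 0.216 CPM in 786-M1A and had means of 0.409, 1.96 and 0.887 CPM in OS-LM1 (shPAX8 against sgNTC18 1.68 ± 0.30 (SE), adjusted p = 4.5e-05). Its OS-LM1 sgNTC18 libraries held 0.211 to 0.620 CPM and did not all reach the level of the low-count filter. The gene was kept there through the hairpin libraries, so the filter favoured a higher value.

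The histone demethylases KDM3A and KDM4B and the hydroxylase JMJD6 need oxygen for their reactions. KDM3A changed by 0.49 ± 0.11 in 786-M1A and 0.50 ± 0.08 in OS-LM1, and JMJD6 by 0.43 ± 0.08 and 0.70 ± 0.08, all higher with shPAX8. In 786-M1A both calls rested on shPAX8-1: with shPAX8-2 alone the changes were 0.28 (adjusted p = 0.077) for KDM3A and 0.19 (adjusted p = 0.084) for JMJD6. KDM4B had changes of -0.06 ± 0.15 (SE), adjusted p = 0.74 and 0.17 ± 0.12 (SE), adjusted p = 0.2. With the GC trend removed, KDM4B was higher in both (0.32, adjusted p = 0.0024, and 0.62, adjusted p = 1.9e-05).

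The 4 collagen hydroxylases modify collagen chains before they fold, P4HA1 and P4HA2 on proline and PLOD1 and PLOD2 on lysine. All 4 were higher with shPAX8 in 786-M1A, and in OS-LM1 P4HA1 and PLOD2 were higher and PLOD1 lower. P4HA1 was at 95.2, 70.8, 68.4 and 77.2 CPM with sgNTC18, 215, 213, 335 and 361 with shPAX8-1 and 233, 222, 283 and 246 with shPAX8-2 in 786-M1A. In OS-LM1 it was at 63.7, 67.3, 70.8 and 76.3, 232, 243, 266 and 226 and 203, 248, 191 and 214 CPM. These levels did not overlap with the controls, and the changes were 1.78 ± 0.16 and 1.70 ± 0.09 (interaction -0.05 ± 0.17 (SE), adjusted p = 0.85). P4HA2 was at 206 to 234 CPM with sgNTC18 and 487 to 585 with shPAX8 in 786-M1A (1.26 ± 0.08 (SE), adjusted p = 1.8e-09). In OS-LM1 its change was 0.12 ± 0.09 (SE), adjusted p = 0.23, and the interaction was -1.11 ± 0.12 (SE), adjusted p = 1.9e-08.

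PLOD2 changed by 1.26 ± 0.14 in 786-M1A and 1.04 ± 0.08 in OS-LM1, and its libraries did not overlap with the controls in either line. PLOD1 was at 504, 619, 588 and 536 CPM with sgNTC18, 929, 818, 561 and 562 with shPAX8-1 and 1322, 1339, 1120.4 and 1317 with shPAX8-2 in 786-M1A. In OS-LM1 it was at 283, 251, 277 and 252, 154, 169.8, 151 and 165 and 232, 184, 289 and 217 CPM. Its changes were 0.79 ± 0.13 (SE), adjusted p = 7.6e-05 in 786-M1A and -0.48 ± 0.09 (SE), adjusted p = 6.3e-05 in OS-LM1, and they overlapped with the controls in both. In OS-LM1 the change missed the threshold with shPAX8-2 alone (-0.20 (adjusted p = 0.088)) and with the GC trend removed (-0.06, adjusted p = 0.31). The PLOD1 interaction was -1.24 ± 0.17 (SE), adjusted p = 5.6e-07. That of PLOD2 was -0.19 ± 0.16 (SE), adjusted p = 0.32, and it passed the threshold with the GC trend removed (-0.24, adjusted p = 0.016) and with replicates 3 and 4 of 786-M1A shPAX8-1 alone (-0.36, adjusted p = 0.017).

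Among the members for glycogen, sterols and protein oxidation, 3 of 4 were higher with shPAX8 in 786-M1A and 4 of 4 in OS-LM1. ERO1A, the oxidase that drives disulfide formation, changed by 0.92 ± 0.13 and 0.57 ± 0.10, and INSIG2, which holds back sterol synthesis, by 0.71 ± 0.19 and 1.13 ± 0.13. In 786-M1A the INSIG2 change with shPAX8-2 alone was 0.44 (adjusted p = 0.081). GBE1, the glycogen branching enzyme, changed by 0.95 ± 0.16 in 786-M1A and 0.27 ± 0.10 (SE), adjusted p = 0.017 in OS-LM1. The OS-LM1 change missed the threshold with shPAX8-2 alone (0.02 (adjusted p = 0.88)), without OS-LM1 sgNTC18 replicate 2 (0.22, adjusted p = 0.066) and without OS-LM1 shPAX8-1 replicate 3 (0.19, adjusted p = 0.054), and it was -0.01 with the GC trend removed. STBD1, a glycogen-binding protein, was higher with shPAX8 in OS-LM1 (0.98 ± 0.10 (SE), adjusted p = 3.4e-08), and its change in 786-M1A was -0.05 ± 0.14 (SE), adjusted p = 0.76 (interaction 1.06 ± 0.17 (SE), adjusted p = 4.9e-06). The files also count the readthrough gene FAM47E-STBD1, so reads of STBD1 could be split between them.

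Of the last 4 members, TMEM45A, a membrane protein, and WSB1, a substrate adaptor of ubiquitin ligases, were higher with shPAX8 in both lines. TMEM45A was at 21.3 to 26.6 CPM with sgNTC18 and 65.6 to 103 with shPAX8 in 786-M1A and at 9.66 to 11.5 and 13.9 to 18.5 in OS-LM1 (changes 1.79 ± 0.12 and 0.65 ± 0.10). WSB1 changed by 0.46 ± 0.08 and 0.67 ± 0.10, and its change in 786-M1A was 0.99 (adjusted p = 2.8e-07) with shPAX8-2 and -0.07 (adjusted p = 0.5) with shPAX8-1. The WSB1 change in 786-M1A was 0.22 (adjusted p = 0.063) with the GC trend removed. ANKRD37, an ankyrin repeat protein, and PPFIA4, a liprin, were low, with group means of 0.514 and 3.02 CPM in 786-M1A with sgNTC18. In OS-LM1 both were lower with shPAX8 (-0.93 ± 0.25 (SE), adjusted p = 0.0027 and -0.99 ± 0.20 (SE), adjusted p = 1.5e-04), and in 786-M1A their changes were 0.61 ± 0.34 (SE), adjusted p = 0.12 and 0.13 ± 0.22 (SE), adjusted p = 0.61. In 786-M1A ANKRD37 was higher with shPAX8-1 alone (0.88, adjusted p = 0.048), and PPFIA4 with the GC trend removed (0.46, adjusted p = 0.023). ANKRD37 lay near the level of the low-count filter there, at 0.328 to 0.702 CPM with sgNTC18. Its shPAX8-1 libraries, at 0.782 to 1.15 CPM, were enough to pass the filter, which may have favoured this call. The PPFIA4 interaction of -1.09 was -0.33 (adjusted p = 0.44) with shPAX8-1 alone.

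The comparison of lines asks how the 2 VHL-deficient lines differ in these targets. With sgNTC18, 11 members were higher and 17 lower in OS-LM1 than in 786-M1A, where 32% and 31% of all 15665 genes were called. With shPAX8, 13 were higher and 20 lower, against 41.7% and 41.5%. The medians were -0.21 and -0.35. The 2 comparisons share no library. Of the 36 members, 9 were higher in OS-LM1 in both (25%, against 24.2% of all genes) and 13 lower in both (36.1%, against 22.5%). ANGPTL4, CA12, STC2 and VLDLR were called in opposite directions (11.1%, against 8.16%). CA9, NDUFA4L2 and RORA are among the 9 and among the members higher in OS-LM1 in each comparison. They passed the low-count filter only through OS-LM1, so the filter fixed their direction. With the GC trend removed, the sgNTC18 differences of VLDLR (0.10, adjusted p = 0.33) and WSB1 (0.20, adjusted p = 0.14) missed the threshold. So did the shPAX8 differences of ERO1A (0.06, adjusted p = 0.28), ANKRD37 (0.48, adjusted p = 0.1) and KDM4B (-0.04, adjusted p = 0.64). ERO1A, ANKRD37 and KDM4B also missed it with shPAX8-1 alone (0.26, 0.68 and -0.19). Without OS-LM1 sgNTC18 replicate 2, the sgNTC18 differences of AK4, BHLHE41 and P4HA2 missed it (-0.23, -0.29 and -0.23). The STC2 difference with shPAX8, -0.19, was small: it was -0.04 (adjusted p = 0.77) with shPAX8-2 alone and missed the threshold without any of 786-M1A shPAX8-1 replicate 4, 786-M1A shPAX8-2 replicate 1 or 2, OS-LM1 shPAX8-1 replicate 2 or OS-LM1 shPAX8-2 replicate 4 (-0.16 to -0.18).

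HIF1A was higher in OS-LM1 by 2.08 ± 0.14 with sgNTC18 and 3.12 ± 0.10 with shPAX8, and EPAS1 was lower, with log2 differences of -0.66 ± 0.11 and -1.0 ± 0.08. Besides CA9, the members higher in OS-LM1 with sgNTC18 included RORA (2.84), ANKRD37 (2.24), NDUFA4L2 (1.82), PLOD2 (0.93), ERO1A (0.67), BNIP3L (0.51) and BNIP3 (0.46). RORA and NDUFA4L2 had 5 and 15 reads over the 4 sgNTC18 libraries of 786-M1A, so these values are imprecise. The lowest in OS-LM1 were ANGPTL4 (-3.03), NDRG1 (-2.77), EFNA1 (-2.11), ADM (-1.87) and TMEM45A (-1.25). All 4 of the mitochondrial members were called, 3 of them higher in OS-LM1, among them NDUFA4L2, which passed the filter only through that line. NDRG1 and DDIT4 were lower there, and the DDIT4 difference (-0.57) was -0.23 (adjusted p = 0.067) with the GC trend removed. The MXI1 difference with sgNTC18 (-0.25) missed the threshold without any of 5 libraries, 786-M1A replicate 3 or 4 or OS-LM1 replicate 1, 3 or 4 (-0.21 to -0.26).

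**Figure D3:**
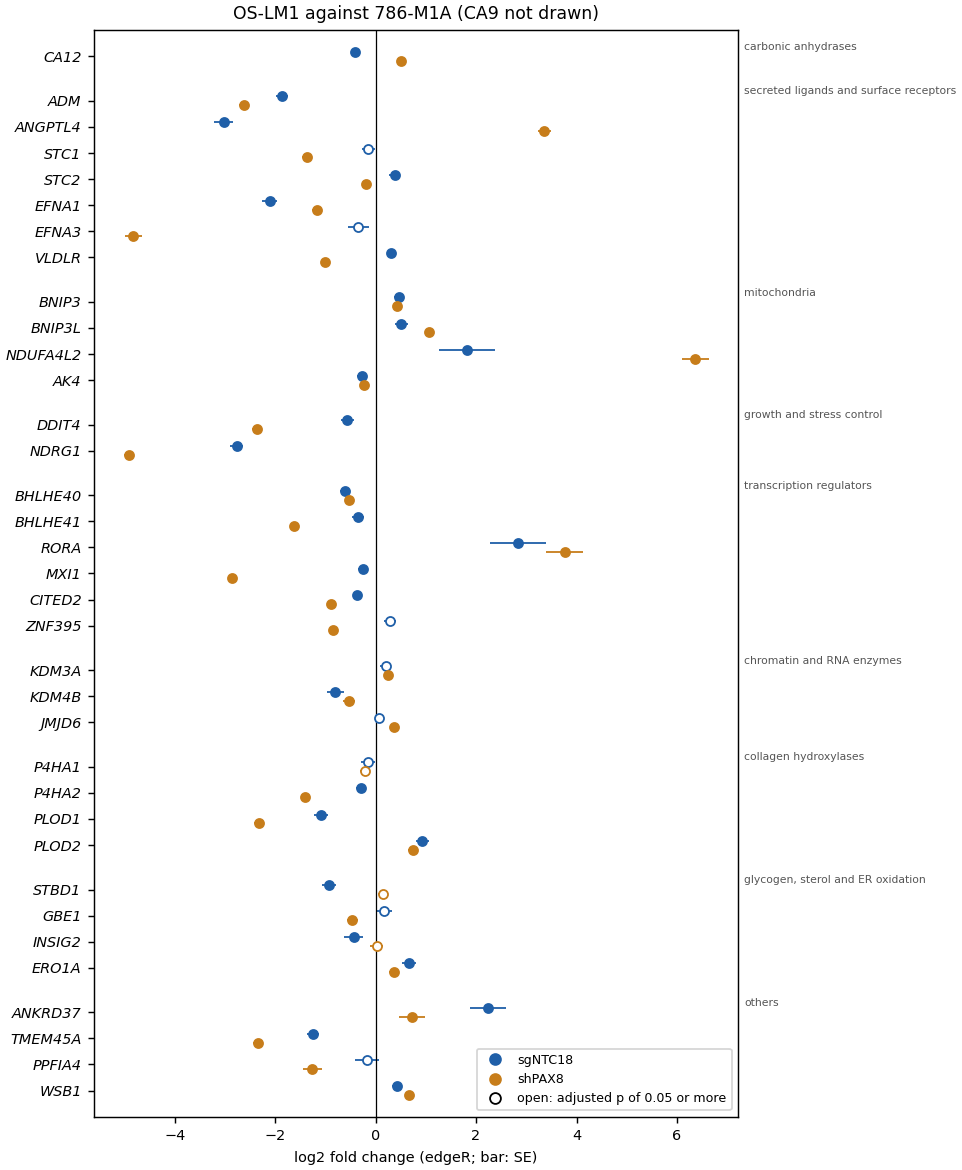
Log2 fold change of OS-LM1 against 786-M1A (x axis, edgeR, bars are SE) in sgNTC18 (blue) and shPAX8 libraries (orange) for 35 members, ordered by role on the y axis; CA9 is left out because it had no reads in 786-M1A sgNTC18 libraries. MXI1 moves from -0.25 to -2.86 and EFNA3 from -0.35 to -4.83, while NDRG1 lies far left in both.

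Levels between genes were compared as TPM, a measure that takes account of transcript length. With sgNTC18, NDRG1 led in 786-M1A at 892 ± 22.7 TPM, followed by CA12 at 437 ± 20.2 and PLOD1 at 344 ± 24.4. In OS-LM1 CA12 led at 309 ± 20.3 TPM, followed by PLOD2 at 236 ± 16.9 and PLOD1 at 154 ± 8.93. With either hairpin the first place stayed with NDRG1 in 786-M1A (1954 ± 435 and 2534 ± 431 TPM with shPAX8-1 and shPAX8-2) and went to PLOD2 in OS-LM1 (429 ± 41.3 and 553 ± 79.3 TPM). CA9 reached 49.0 ± 6.70 TPM with shPAX8-1 in OS-LM1.

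The constructs were compared with each other because both are hairpins, which the comparison with sgNTC18 lacks. In 786-M1A, 10 members were higher and 11 lower with shPAX8-1 than with shPAX8-2 of 33 tested, against 24.2% and 22.9% of all genes. With replicates 1 and 2 of shPAX8-1 alone, 14 members and 25.8% of all genes were called, and with replicates 3 and 4 alone, 25 members and 60.8% of all genes, against 47.1% with all 4. In OS-LM1, 10 were higher and 10 lower of 36, against 12.4% and 16.7% of all genes. The level of PAX8 was lower with shPAX8-1 in 786-M1A than with the other hairpin (-1.18 ± 0.15 (SE), adjusted p = 4.0e-05), and its difference in OS-LM1 was -0.05 ± 0.12 (SE), adjusted p = 0.8.

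STC2, CITED2 and BNIP3 were higher with shPAX8-1 in both lines, and ANGPTL4, CA12, PLOD1, PLOD2, AK4 and NDRG1 lower in both, which makes 9.09% and 18.2% of the 33 members tested in both against 5.15% and 7.69% of all genes. In 786-M1A the PLOD2 difference (-0.51) was -0.25 (adjusted p = 0.097) and that of AK4 (-0.39) -0.26 (adjusted p = 0.055) with shPAX8-1 replicates 3 and 4 alone. CITED2 differed by 0.98 ± 0.11 and 0.94 ± 0.08, with no overlap. ANGPTL4 differed by -2.76 ± 0.19 and -0.92 ± 0.15, and PLOD1 by -0.83 ± 0.15 and -0.55 ± 0.10. In OS-LM1, JMJD6 was lower (-0.45), while it was higher in 786-M1A (0.49), and BHLHE41 and VLDLR were opposed likewise. JMJD6, BHLHE41 and VLDLR make up 9.09% of the members tested in both lines, against 3.45% of all genes. The BHLHE41 difference in OS-LM1 (-0.33) missed the threshold without OS-LM1 shPAX8-1 replicate 3 (-0.26) or 4 (-0.30) or OS-LM1 shPAX8-2 replicate 4 (-0.26). WSB1 was lower with shPAX8-1 in 786-M1A (-1.06 ± 0.09 (SE), adjusted p = 1.5e-06), and its difference in OS-LM1 was -0.28 ± 0.11 (SE), adjusted p = 0.065. In 786-M1A the NDRG1 difference (-0.39) was -0.24 (adjusted p = 0.066) with the GC trend removed and missed the threshold without any of 5 libraries, shPAX8-1 replicate 2, 3 or 4 or shPAX8-2 replicate 1 or 2 (-0.32 to -0.36). The differences of BNIP3L, INSIG2 and ERO1A there missed the threshold without any of 5 libraries, shPAX8-1 replicate 3 or 4 or shPAX8-2 replicate 1, 2 or 4 (BNIP3L 0.25 to 0.32, INSIG2 0.32 to 0.58, ERO1A 0.27 to 0.40), and turned to -0.14, -0.01 and -0.10 with the GC trend removed, and VLDLR was at 0.05 (adjusted p = 0.68). With shPAX8-1 replicates 1 and 2 alone, BNIP3L, INSIG2 and ERO1A were at 0.07, 0.1 and 0.06, and NDRG1 at -0.21 (adjusted p from 0.31 to 0.74). STC1, called in 786-M1A (-0.63), differed in OS-LM1 by -0.19 ± 0.11 (SE), adjusted p = 0.22.

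**Figure D4:**
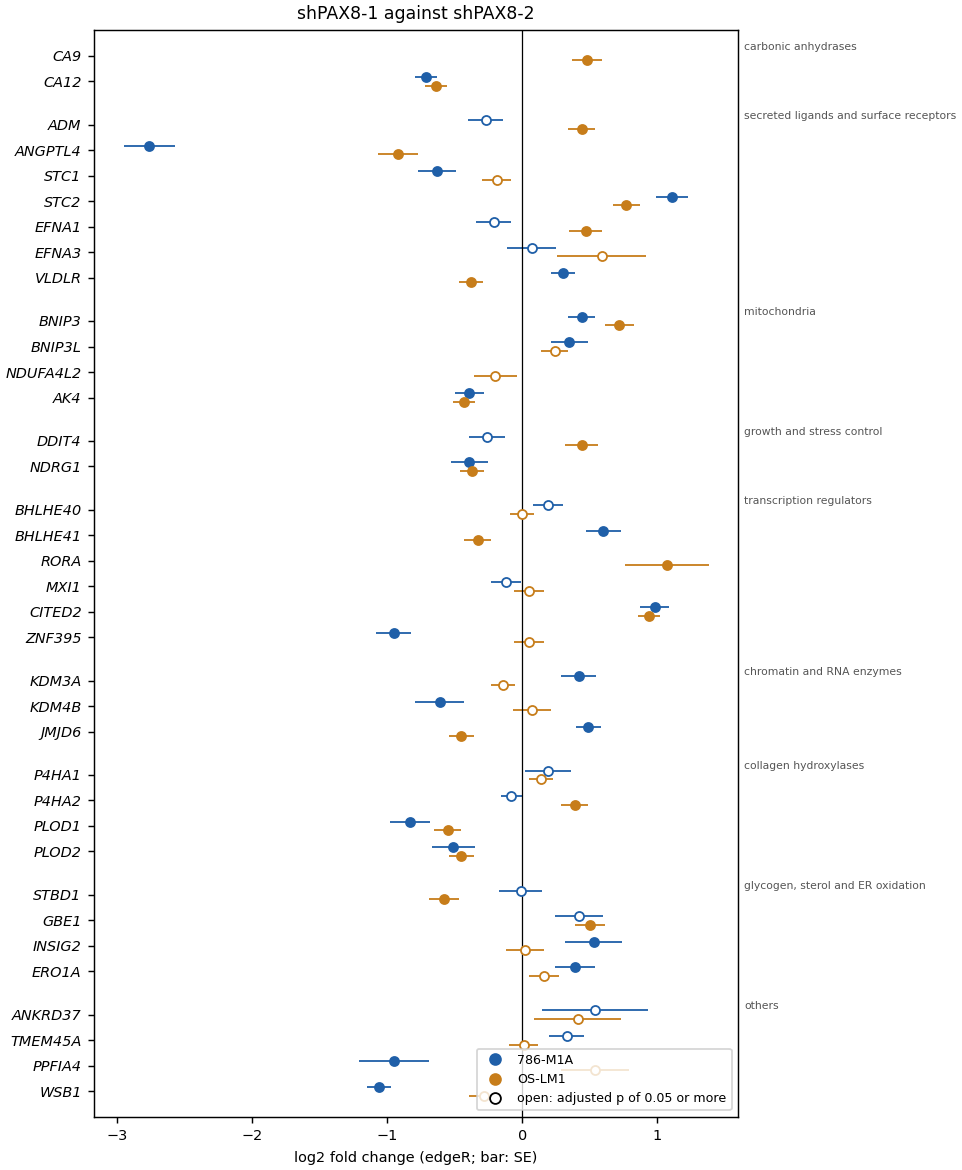
Log2 fold change of shPAX8-1 against shPAX8-2 (x axis, edgeR, bars are SE) in 786-M1A (blue) and OS-LM1 (orange), genes by role on the y axis, open circles where the adjusted p was 0.05 or more. ANGPTL4 lies furthest left in both lines, at -2.76 and -0.92, and CITED2 lies near 0.98 and 0.94.

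The construct difference itself differed between lines for 14 members, 9 with a larger value in OS-LM1 and 5 with a smaller one, where 12.7% and 14.5% of all genes were called. ANGPTL4 (1.87 ± 0.27 (SE), adjusted p = 1.3e-05), PPFIA4 (1.51 ± 0.37 (SE), adjusted p = 0.0035) and ZNF395 (1.03 ± 0.18 (SE), adjusted p = 1.2e-04) had the largest positive values. JMJD6 (-0.92 ± 0.12 (SE), adjusted p = 4.7e-06) and BHLHE41 (-0.90 ± 0.17 (SE), adjusted p = 3.5e-04) had the most negative ones.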

How the data were processed

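The authors mapped reads to hg38 (GRCh38) with RSEM and Bowtie2, whose versions are not given in the sources used here, and deposited 1 gene table per library with expected counts and TPM. The labels name a stranded poly(A) kit and the study's methods another kit; the strand setting is not given. Expected counts were rounded. Genes with low counts were removed by filterByExpr, and groups were compared with edgeR 4.0.16 (R 4.3.3), TMM and robust quasi-likelihood F-tests: within each line on its 12 libraries, and between lines and for interactions on all 24. p-values were adjusted (Benjamini-Hochberg) over all genes tested, with 0.05 as the threshold, and SEs were taken from the F statistic. The shPAX8 value averages both constructs. The scripts were tested on simulated counts. Members and gene lists were chosen with earlier results of these data known, and 2 of the marker genes first listed are not reported here. All 36 members are given by role, PAX8 comes first, the 4 called members with the largest change in each direction of a comparison and paralogue pairs are given with values, and named lists are given as counts, with values for HIF1A and EPAS1. Alternatives were DESeq2 1.42.0, its size factors, no filter, a block, a GC trend, a fold threshold, each construct, and each library left out. The interaction of line with shPAX8-1 against shPAX8-2 was added after the data were seen. Replicate numbers were not taken to pair libraries: same-number residual correlations ran from -0.319 to 0.271, and no comparison had all 4 over 0.1. Between the constructs in 786-M1A they were 0.217, 0.154, 0.271 and 0.037, so 3 of 4 were.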

Additional observations from a re-analysis of the deposited data

Results flagged for a closer look

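In 14 of 210 groups of 4 libraries (6.7%, where chance gives about 5%), the highest or lowest library stood apart from the other three by a gap that exceeded Dixon's 95% critical share of the range. The libraries were spread over 10 of the 24. In 786-M1A these were ADM at 109 CPM in shPAX8-1 replicate 2 (others 153 to 157), EFNA1 at 51.3 and NDRG1 at 4494 in shPAX8-1 replicate 1 (others 35.6 to 38.2 and 2929 to 3191), VLDLR at 42.7 in sgNTC18 replicate 2, VLDLR at 137 in shPAX8-2 replicate 4, and BNIP3L at 67.4 and PLOD1 at 1120.4 in shPAX8-2 replicate 3. In OS-LM1 they were CA12 at 917 and JMJD6 at 106 in shPAX8-2 replicate 3, AK4 at 350.2 and P4HA2 at 151 in shPAX8-2 replicate 2, CITED2 at 53.2 in shPAX8-2 replicate 1, MXI1 at 11.1 in shPAX8-1 replicate 2 and TMEM45A at 11.5 in sgNTC18 replicate 3.

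The change with shPAX8 against sgNTC18 differed between the lines for 24 members by the interaction term, given here as OS-LM1 minus 786-M1A on the log2 scale. It was positive for ANGPTL4 (6.40), NDUFA4L2 (4.54), STBD1 (1.06), EFNA1 (0.94), CA12 (0.92), BNIP3L (0.56) and JMJD6 (0.30). It was negative for EFNA3 (-4.48), MXI1 (-2.61), NDRG1 (-2.15), DDIT4 (-1.80), ANKRD37 (-1.51), VLDLR (-1.31), BHLHE41 (-1.26), PLOD1 (-1.24), STC1 (-1.22), ZNF395 (-1.12), P4HA2 (-1.11), TMEM45A (-1.11), PPFIA4 (-1.09), ADM (-0.76), GBE1 (-0.65), STC2 (-0.57) and CITED2 (-0.52). The NDUFA4L2 value was favoured by the low-count filter, which the gene passed only through OS-LM1. With shPAX8-1 alone the JMJD6 value was -0.16 (adjusted p = 0.27) and that of PPFIA4 -0.33 (adjusted p = 0.44). The JMJD6 value also missed the threshold without OS-LM1 sgNTC18 replicate 2 (0.25, adjusted p = 0.053) and without 786-M1A shPAX8-2 replicate 3 (0.24, adjusted p = 0.053).

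The difference of shPAX8-1 from shPAX8-2 differed between the lines for 14 members on the same scale. It was positive for ANGPTL4 (1.87), PPFIA4 (1.51), ZNF395 (1.03), WSB1 (0.82), ADM (0.75), DDIT4 (0.73), EFNA1 (0.71), KDM4B (0.71) and P4HA2 (0.49), and negative for JMJD6 (-0.92), BHLHE41 (-0.90), VLDLR (-0.65), STBD1 (-0.54) and KDM3A (-0.53). The value of STBD1 missed the threshold without any of 9 single libraries (-0.44 to -0.53), that of KDM4B without any of 6 (0.60 to 0.67), and those of ADM, DDIT4 and KDM4B missed it with the GC trend removed. With replicates 1 and 2 of 786-M1A shPAX8-1 alone, STBD1 (-0.24, adjusted p = 0.43), KDM4B (0.44, adjusted p = 0.19) and KDM3A (-0.31, adjusted p = 0.17) missed it. In that fit STC1 (0.66, adjusted p = 0.015) and GBE1 (0.53, adjusted p = 0.039) passed it.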

How the results depend on the processing

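With a fold threshold of 0.58 (log2) added, 15 members were called between the lines with sgNTC18, 11 between the constructs in 786-M1A and 6 in OS-LM1; all other counts stayed within 1.5 times the reported ones. With each library left out, counts ran from 24 to 28 and 32 to 34 between the lines (sgNTC18, shPAX8), 26 to 27 and 29 to 31 for shPAX8 against sgNTC18 (786-M1A, OS-LM1), 23 to 25 for its interaction, 16 to 25 and 19 to 22 between the constructs, and 12 to 15 for their interaction. Of 1316 alternative values of the members that the naming rule picks in each comparison, 1295 kept direction and threshold, 19 lost the call and 2 turned sign: INSIG2 between the constructs in 786-M1A was -0.01 with the GC trend removed, and -0.01 with the block and GC together. The rule takes the largest changes in the same data, so most of these were bound to hold. They do not measure how well the calls of the other members held. Genes with a GC value made up 92.5% of those expressed. The replicate block gave 27, 33, 27, 30, 24, 22, 20 and 14 calls in the order above; same-numbered libraries share only a number, and the block lost 1 call (MXI1 between the lines with sgNTC18) and gained 1 (TMEM45A between the constructs in 786-M1A). Shares of all genes are not given for the fold threshold, the left-out libraries or the block. The counts under those settings therefore do not set the members against the background. Low counts limit CA9, NDUFA4L2 and RORA in 786-M1A.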
